A study of Mus musculus with 6 samples.

Results

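The 10 genes described here encode the receptors for RANKL and M-CSF, proteins that act close to them, and parts of a co-stimulatory arm described below. The genes are Tnfrsf11a, Csf1r, Traf6, Traf3, Tyrobp, Fcer1g, Trem2, Syk, Plcg2 and Gab2. They were taken by gene symbol from a table of raw RNA-seq counts with 41921 rows, and each symbol matched 1 row. The table covers 6 libraries of RAW264.7, a wild-type mouse monocyte/macrophage cell line that can form osteoclasts, the cells that resorb bone. Of these, 3 were labelled RANKL and 3 albiflorin, a monoterpene glycoside of peony root. The protocol given for every sample is RANKL at 50 ng/mL on cells kept 3 days past confluence. The sources used here do not say whether the cells labelled albiflorin received both agents, or the albiflorin dose and time. The genes were compared between the groups because the series asks how albiflorin acts on osteoclasts, and no untreated sample was analysed here. The labels do not tie replicates to separate cultures, so p-values reflect only how these libraries vary, and that variation may be technical.

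RANK, the product of Tnfrsf11a, binds RANKL on the osteoclast precursor and passes the signal on through TRAF adaptor proteins. The M-CSF receptor, the product of Csf1r, keeps precursors alive and dividing. A co-stimulatory arm joins them: receptors such as TREM2 pair with the adaptors DAP12 (Tyrobp) or FcR gamma (Fcer1g), whose ITAM tyrosines recruit the kinase SYK, which activates the phospholipase PLC gamma 2 and so raises calcium.

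The libraries held 13673284 to 15489482 counts. Among macrophage markers, 7 of 8 listed genes were matched; their summed level was 1002 to 1163 FPKM (fragments scaled to gene length and library size) in the RANKL libraries and 1258 to 1278 in the albiflorin libraries, with Spi1 and Cd14 called higher and Adgre1 lower. Itgam, another defining macrophage gene, was near 0 (0.00507 FPKM with RANKL). The 8 osteoclast markers summed to 27.3 to 30.2 FPKM with RANKL and 31.2 to 34.8 with albiflorin, with Acp5 called higher, Calcr at 0 in all libraries and Ctsk at 0.301 FPKM with RANKL. Acp5 (14.1 FPKM with RANKL, 17.2 with albiflorin) weighed most in the osteoclast sum. Itgb3 was below 0 (log2 fold change -0.75), while Mmp9 (0.48), Atp6v0d2 (0.37), Ocstamp (0.30) and Dcstamp (0.05) were above 0. None of these last genes was called. The part of these markers in the results on the 10 genes was not tested. Cd68 (573 FPKM with RANKL, 645 with albiflorin) and Cd14 (386 and 461) weighed most in the macrophage sum. Ptprc (log2 fold change -0.10) and Mrc1 (-0.19) were below 0 and not called. The marker calls were made with no trend of fold change on mRNA length removed. Their values with such a trend removed are not given here. The summed markers of T cells, B cells, fibroblasts and osteoblasts, epithelial cells and mast cells reached at most 1.31 FPKM in any library. In bulk RNA, fewer cells of a type and less RNA per cell cannot be told apart.

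All 10 genes were abundant enough to test. Tyrobp and Fcer1g, the ITAM adaptor genes, rose with albiflorin, and Gab2, Traf3 and Syk fell (edgeR quasi-likelihood test, Benjamini-Hochberg adjusted p under 0.05 over 13158 genes). The other 5, including both receptor genes, did not pass. A count of 5 called among 10 stands beside 23.8% called among all tested genes, with 12.4% called higher and 11.4% lower. The median log2 fold change of the 10 was -0.14, against 0.01 over all tested genes. The libraries of the groups did not overlap for 7 of the 10, 2 higher and 5 lower, beside 40.1% of all tested genes. Each of the 5 calls held when any 1 library was left out. Of the 5, the calls of Tyrobp, Fcer1g, Syk and Traf3 ended, and the first 2 changed sign, when a trend of fold change on mRNA length was removed (edgeR adjusted p = 0.332, 0.171, 0.129 and 0.338); Gab2 kept its call (0.0250).

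**Figure D1:**
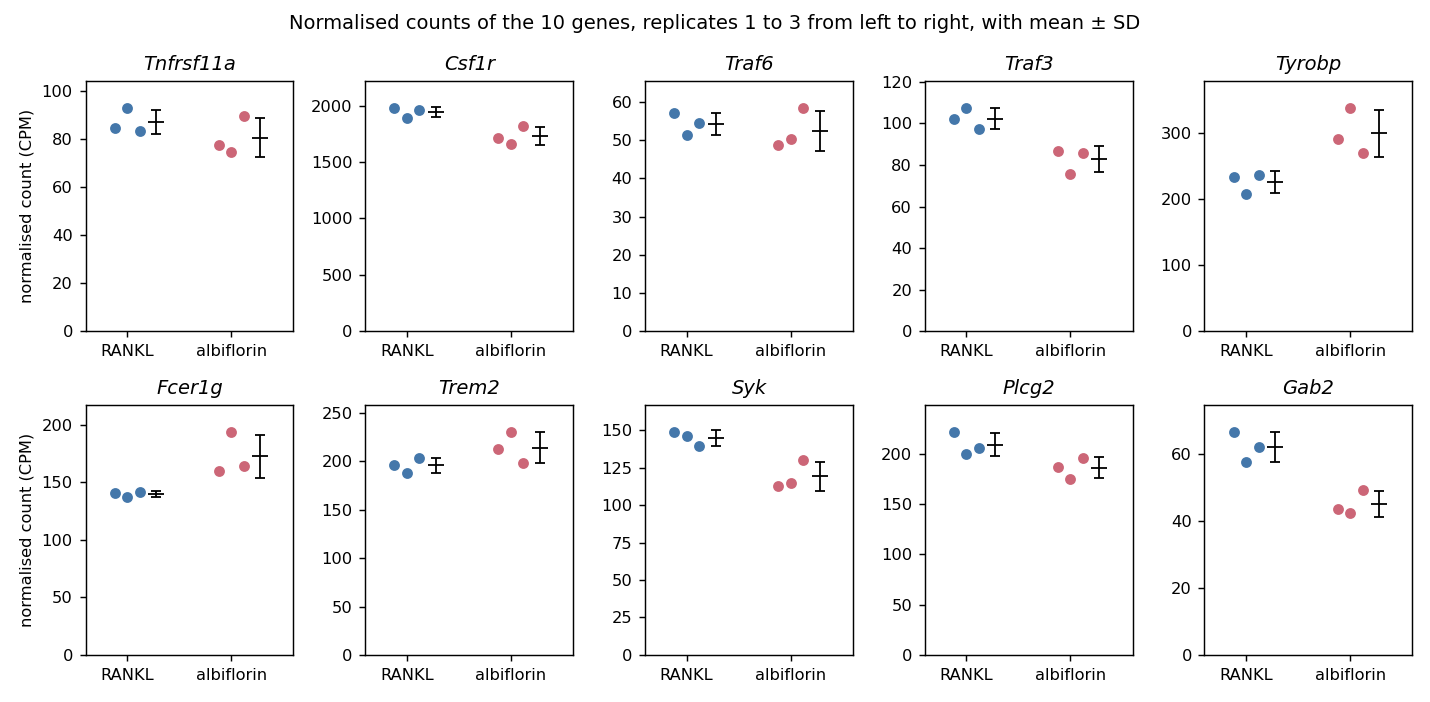
Normalised counts (CPM, y axis from 0) of each gene in the 3 RANKL and 3 albiflorin libraries; points are replicates 1 to 3 from left to right, bars are the mean and SD. The groups separate for Csf1r, Traf3, Tyrobp, Fcer1g, Syk, Plcg2 and Gab2 and overlap for Tnfrsf11a, Traf6 and Trem2.

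Tnfrsf11a (MGP_C57BL6NJ_G0016767, chromosome 1, 112048184 to 112121863, plus strand) stood at 84.8, 93.0 and 83.5 CPM (counts scaled to library size, with TMM factors) in RANKL replicates 1 to 3 and at 77.7, 74.5 and 89.6 CPM in albiflorin replicates 1 to 3. Albiflorin replicate 3 lay inside the RANKL range and the other two below it, so the groups overlapped. The means were 87.1 ± 5.17 and 80.6 ± 7.95 CPM (SD, n = 3 each). The log2 fold change was -0.11 ± 0.0754 (SE; edgeR adjusted p = 0.309) with a 95% interval from -0.27 to 0.05.

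Csf1r (MGP_C57BL6NJ_G0024888) was by count the most abundant of the 10. It stood at 1980.2, 1889.6 and 1962 CPM with RANKL and at 1709.8, 1660.1 and 1819.5 CPM with albiflorin. All 3 albiflorin libraries lay below all 3 RANKL libraries. The means were 1944 ± 47.9 and 1729.8 ± 81.5 CPM (SD, n = 3 each), a log2 fold change of -0.17 ± 0.0636 (SE) that did not pass (edgeR adjusted p = 0.0660). It passed with DESeq2 (adjusted p = 0.0128), limma-voom (0.0421), no filter on low counts (0.0304) and without albiflorin replicate 3 (-0.21, adjusted p = 0.0295).

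The ligands of these receptors were scarce in the cells themselves. Tnfsf11, which encodes RANKL, and Tnfrsf11b, which encodes its decoy receptor osteoprotegerin, were at 0 counts in each of the 6 libraries; a count of 0 still allows a level of 0.223 CPM, the worth of 3 counts in the library scaled up most (counting error only). Csf1, the gene for M-CSF, had 19 to 40 counts per library and a log2 fold change of 0.16 ± 0.303 (edgeR adjusted p = 0.752). Il34, the other ligand of the M-CSF receptor, had 3 counts in all.

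TRAF6 carries the RANK signal to NF-kB and MAP kinases, and TRAF3 restrains it by promoting degradation of the kinase NIK. Traf6 (chromosome 2, 107054359 to 107077632, plus strand) stood at 57.1, 51.3 and 54.4 CPM with RANKL and at 48.7, 50.3 and 58.4 CPM with albiflorin. The groups overlapped, and the log2 fold change was -0.05 ± 0.0802 (edgeR adjusted p = 0.713; 95% interval -0.22 to 0.12). Traf3 (chromosome 12, 117058869 to 117168178, plus strand) stood at 102, 107 and 97.2 CPM with RANKL and at 86.9, 75.8 and 86.0 CPM with albiflorin. Every albiflorin library was below every RANKL library. Traf3 fell from 102 ± 5.17 to 82.9 ± 6.16 CPM (SD, n = 3 each), a log2 fold change of -0.30 ± 0.0692 (edgeR adjusted p = 0.00550). It stood at -0.09 (0.338) or -0.18 (0.0432) with the trend on mRNA or listed length removed.

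Tyrobp (MGP_C57BL6NJ_G0032467, chromosome 7, 30359575 to 30363785, plus strand) rose. Its values were 234, 208 and 237 CPM with RANKL and 291, 338 and 269 CPM with albiflorin. The lowest albiflorin library exceeded the highest RANKL library, and albiflorin replicate 2 was the highest of the 6. The means were 226 ± 16.1 and 299.6 ± 35.3 CPM (SD, n = 3 each), a rise of 32.5% or 0.41 ± 0.0798 on the log2 scale (edgeR adjusted p = 0.00220). With the length trend removed its log2 fold change was -0.08 (mRNA length, adjusted p = 0.332) or -0.01 (listed gene length, 0.932).

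Fcer1g, the other ITAM adaptor gene (MGP_C57BL6NJ_G0017150, chromosome 1, 182893959 to 182898627, minus strand), rose by 23.5%. It stood at 140.5, 137 and 142 CPM with RANKL and at 159.7, 194 and 165 CPM with albiflorin, again with no overlap and with albiflorin replicate 2 highest. The log2 fold change was 0.30 ± 0.0719 (edgeR adjusted p = 0.00664), and -0.13 (0.171) or -0.04 (0.709) with the trend on mRNA or listed length removed. The spread was 2.53 CPM (SD, n = 3) with RANKL and 18.7 CPM with albiflorin. Trem2, which encodes a lipid-sensing receptor that signals through DAP12 (chromosome 17, 51737233 to 51744979, plus strand), stood at 197, 188 and 203 CPM with RANKL and at 213, 231 and 199 CPM with albiflorin. Albiflorin replicate 3 lay inside the RANKL range, and the log2 fold change of 0.13 ± 0.0658 did not pass (edgeR adjusted p = 0.177; 95% interval -0.01 to 0.27).

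SYK is the kinase that binds the phosphorylated ITAMs. Syk (chromosome 13, 53464132 to 53530884, plus strand) stood at 149, 146 and 139 CPM with RANKL and at 113, 115 and 130.3 CPM with albiflorin. The groups did not overlap. Syk fell from 145 ± 5.07 to 119 ± 9.60 CPM (SD, n = 3 each), a log2 fold change of -0.28 ± 0.0669 (edgeR adjusted p = 0.00703). With the trend on mRNA or listed length removed it stood at -0.13 (0.129) or -0.12 (0.176), on the same side of 0 as Tyrobp and Fcer1g.

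Gab2, a docking protein that carries RANK and M-CSF receptor signals to PI3 kinase and SHP2, fell. Gab2 (MGP_C57BL6NJ_G0033002, chromosome 7, 103646856 to 103884762, plus strand) stood at 66.6, 57.4 and 61.9 CPM with RANKL and at 43.5, 42.2 and 49.3 CPM with albiflorin. Each albiflorin library was below the lowest RANKL library. The means were 62.0 ± 4.58 and 45.0 ± 3.76 CPM (SD, n = 3 each), and the log2 fold change was -0.46 ± 0.0801 (edgeR adjusted p = 0.00106). Gab2 was called lower under all 16 alternatives run, with log2 fold changes from -0.53 to -0.28.

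Plcg2 (chromosome 8, 124748021 to 124905492, plus strand) stood at 222, 200.1 and 206 CPM with RANKL and at 187, 175 and 196 CPM with albiflorin. All albiflorin libraries were lower, and the log2 fold change of -0.17 ± 0.0645 did not pass (edgeR adjusted p = 0.0692). It passed with DESeq2 (adjusted p = 0.0484), with no filter on low counts (0.0497) and without albiflorin replicate 3 (-0.21, adjusted p = 0.0380).

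The direction of the 10 genes followed the length of their mRNAs. Tyrobp, Fcer1g and Trem2 have principal mRNAs of 564, 674 and 1088 nt, and all 3 log2 fold changes were above 0. The other 7 have mRNAs of 4298 to 7060 nt, and all 7 were below 0. The same held for other genes: among 592 tested protein-coding genes with mRNAs under 1000 nt, 59.8% were called higher and 0.845% lower, and among 2841 genes of 4000 to 8000 nt, 1.76% were called higher and 28.5% lower. Among the albiflorin libraries, replicate 2 was the highest for all 3 short mRNAs and the lowest for 5 of the 7 long ones. Among the RANKL libraries, replicate 2 was the lowest for all 3 short mRNAs and also for 4 of the 7 long ones, and replicate 3 was the highest for all 3 short ones and the lowest for 3 of the 7 long ones.

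**Figure D2:**
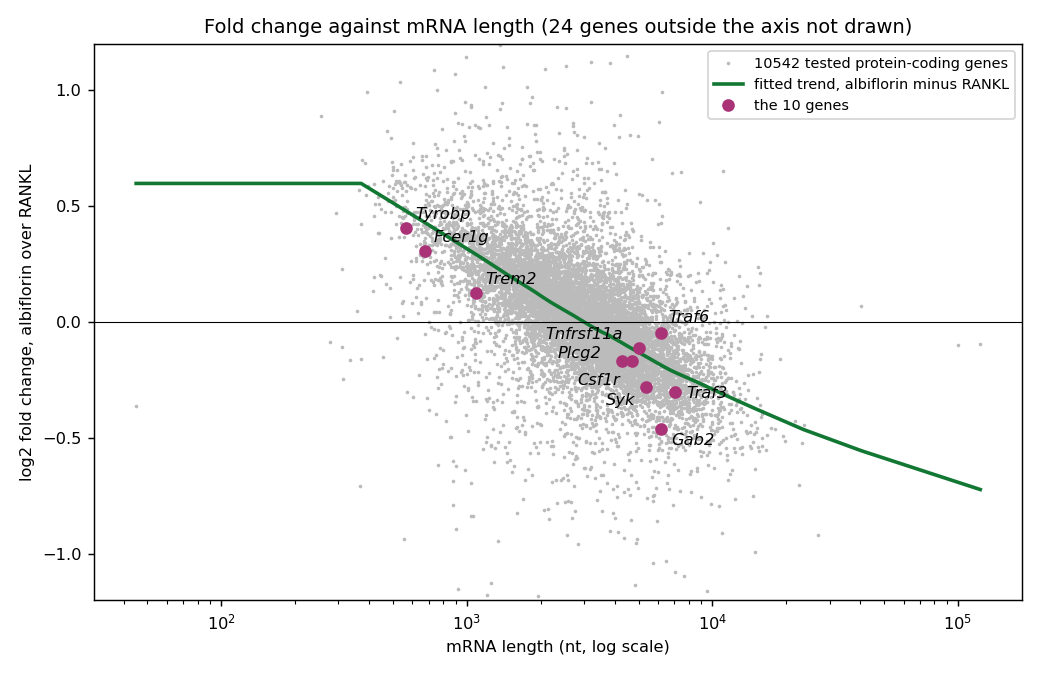
Log2 fold change (y axis) against mRNA length in nt (x axis, log scale) for 10542 tested protein-coding genes in grey, with the fitted trend as a line and the 10 genes as large points; 24 genes lie beyond the y axis. Tyrobp, Fcer1g and Trem2 lie at the short end above 0 and under the line (Trem2 at 0.13 against a trend of 0.29), and Gab2 lies farthest below the line.

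The trend of each library on mRNA length was therefore removed and the genes were tested again. The trend alone amounted to 0.48 (log2, albiflorin minus RANKL) at the length of Tyrobp, 0.43 at that of Fcer1g and 0.29 at that of Trem2. It was -0.22 at the length of Traf3, -0.19 for Gab2 and for Traf6, and -0.15 for Syk. What sets the trend was not tested. With it removed, 0 of the 10 genes were called higher and 2 lower, Gab2 (log2 fold change -0.28, edgeR adjusted p = 0.0250) and Trem2 (-0.17, adjusted p = 0.0346), beside 10.4% of all tested genes called, 4.88% higher and 5.47% lower. Tyrobp stood at -0.08 (adjusted p = 0.332), Fcer1g at -0.13 (0.171), Syk at -0.13 (0.129) and Traf3 at -0.09 (0.338).

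The receptor genes remained uncalled with the trend removed, Tnfrsf11a at 0.02 (edgeR adjusted p = 0.886) and Csf1r at -0.06 (0.519). Traf6 moved to 0.13 (0.267) and Plcg2 to -0.08 (0.386). With the trend fitted instead on the gene length listed in the deposited table, 0 of the 10 were higher and 2 lower, Gab2 (-0.37, adjusted p = 0.00372) and Traf3 (-0.18, adjusted p = 0.0432), beside 15.1% of all tested genes called, 7.18% higher and 7.96% lower. Tyrobp was then at -0.01 (0.932) and Fcer1g at -0.04 (0.709).

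Trem2 changed sign with the choice of length. The deposited table lists 4946 nt for it while its principal mRNA has 1088 nt. With the trend on listed length removed its log2 fold change was 0.17 (edgeR adjusted p = 0.0785), and with the trend on mRNA length removed it was -0.17. No direction is therefore given for Trem2.

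**Figure D3:**
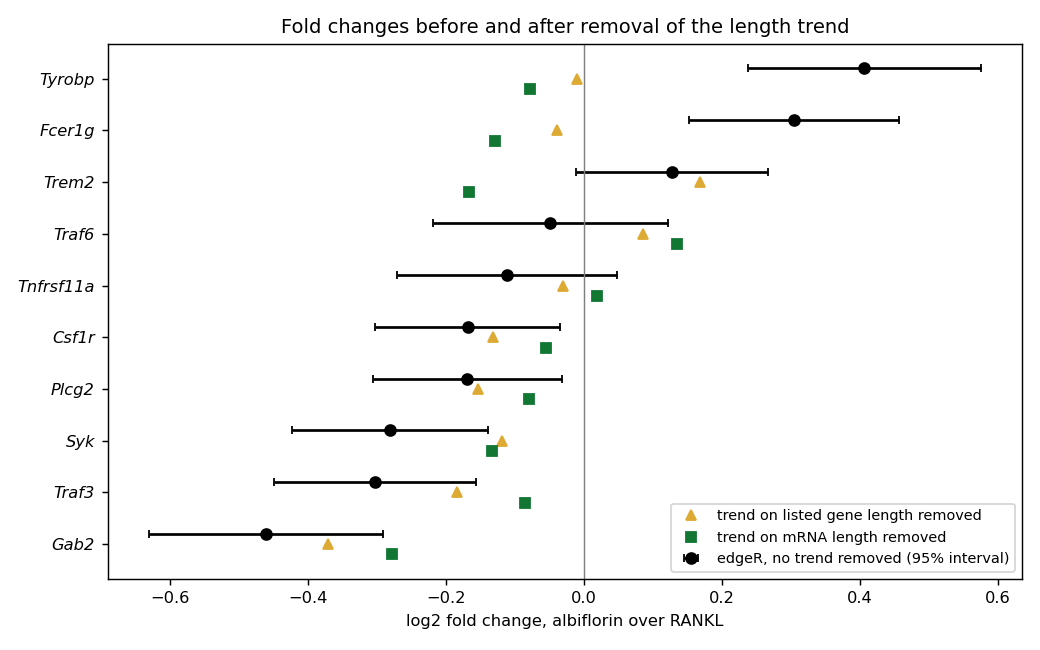
Log2 fold change of each gene (x axis, albiflorin over RANKL) with its 95% interval in black, and the values after removing the trend on listed gene length (triangles) or mRNA length (squares). Tyrobp and Fcer1g move from 0.41 and 0.30 to below 0, Trem2 falls on opposite sides of 0, and Gab2 is below -0.2 under all 3.

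Start-site sequence was read from RefSeq (GRCm38.p6, the C57BL/6J reference, not the strain of RAW264.7) for 7 of the 10 genes, with 250 bases before and 50 after each start; Csf1r, Tyrobp and Gab2 were not in that table. The motif searched was GAGGAA on both strands, the core bound by PU.1, the myeloid factor encoded by Spi1. Spi1 itself was called higher with no length trend removed (log2 fold change 0.31, edgeR adjusted p = 0.0023). Its value with a length trend removed is not given here. The motif was present in 4 of the 8 windows (Syk has 2 start sites), and in 28.3% of all 32851 windows in the table. Shown are Fcer1g (chr1:171234300-171234599, minus strand) and Traf3 (chr12:111166120-111166419, plus strand), called on opposite sides before removal of a length trend. With the mRNA-length trend removed neither was called, at -0.13 (edgeR adjusted p = 0.171) and -0.09 (0.338). With the listed-length trend removed Fcer1g was at -0.04 (0.709) and Traf3 was called lower (-0.18, 0.0432). Also shown is the receptor gene Trem2 (chr17:48346151-48346450, plus strand). The motif is in capitals.
Fcer1g: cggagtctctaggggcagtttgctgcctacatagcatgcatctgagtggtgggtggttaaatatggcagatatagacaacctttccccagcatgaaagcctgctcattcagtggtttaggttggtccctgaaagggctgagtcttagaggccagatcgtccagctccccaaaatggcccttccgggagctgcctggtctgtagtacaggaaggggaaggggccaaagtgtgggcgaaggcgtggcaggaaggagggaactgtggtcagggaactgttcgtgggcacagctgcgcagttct
Traf3: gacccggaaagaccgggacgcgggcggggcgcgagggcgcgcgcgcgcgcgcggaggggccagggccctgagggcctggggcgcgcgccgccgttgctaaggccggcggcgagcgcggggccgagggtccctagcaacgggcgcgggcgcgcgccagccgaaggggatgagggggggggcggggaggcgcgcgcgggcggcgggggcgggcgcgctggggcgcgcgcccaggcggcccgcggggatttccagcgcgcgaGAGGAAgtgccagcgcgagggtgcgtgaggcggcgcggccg
Trem2: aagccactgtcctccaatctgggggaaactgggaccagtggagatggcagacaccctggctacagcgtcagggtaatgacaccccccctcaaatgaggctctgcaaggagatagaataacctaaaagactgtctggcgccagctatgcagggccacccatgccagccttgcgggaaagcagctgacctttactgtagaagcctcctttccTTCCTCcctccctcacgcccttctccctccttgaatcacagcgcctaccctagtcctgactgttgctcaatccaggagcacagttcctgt
These windows differ in base composition. The Traf3 window holds 59 CpG dinucleotides, more than 99.9% of windows have, and the motif lies in the 50 bases after its start; the Fcer1g window holds 7, the median of all windows, and no match; the Trem2 window holds 5 and 1 match as the reverse complement, TTCCTC, before its start. Tnfrsf11a (43 CpG) and Plcg2 (21) had no match, and Traf6 (19) had 2. A match is a description of these letters and not evidence of binding.

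Levels of different genes were compared per length. In FPKM, as deposited, the RANKL libraries spanned from Tyrobp (399 ± 28.03, SD, n = 3) to Traf6 (6.86 ± 0.364), a ratio of 58.2 between the means. Tyrobp and Csf1r (398 ± 9.53) overlapped, and 99.4% of tested genes lay below either. Fcer1g (159 ± 2.75), Plcg2 (48.5 ± 2.66) and Trem2 (39.5 ± 1.48) followed, each apart from its neighbours. Syk (15.4 ± 0.547), Tnfrsf11a (14.5 ± 0.872) and Traf3 (14.3 ± 0.736) overlapped in turn, and Gab2 (9.93 ± 0.729) and Traf6 came last.

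The order depends on the length in the denominator. Expressed as CPM per kilobase of principal mRNA, an alternative chosen after seeing the data, Trem2 stood at 181 ± 6.85 (SD, n = 3) and not 39.5, above Plcg2 (49.0 ± 2.25) and next to Fcer1g (209 ± 3.65). Syk stood at 27.2 ± 0.817, apart from Tnfrsf11a (17.4 ± 1.13). Csf1r (416 ± 7.90) and Tyrobp (403 ± 27.0) still overlapped at the top.

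**Figure D4:**
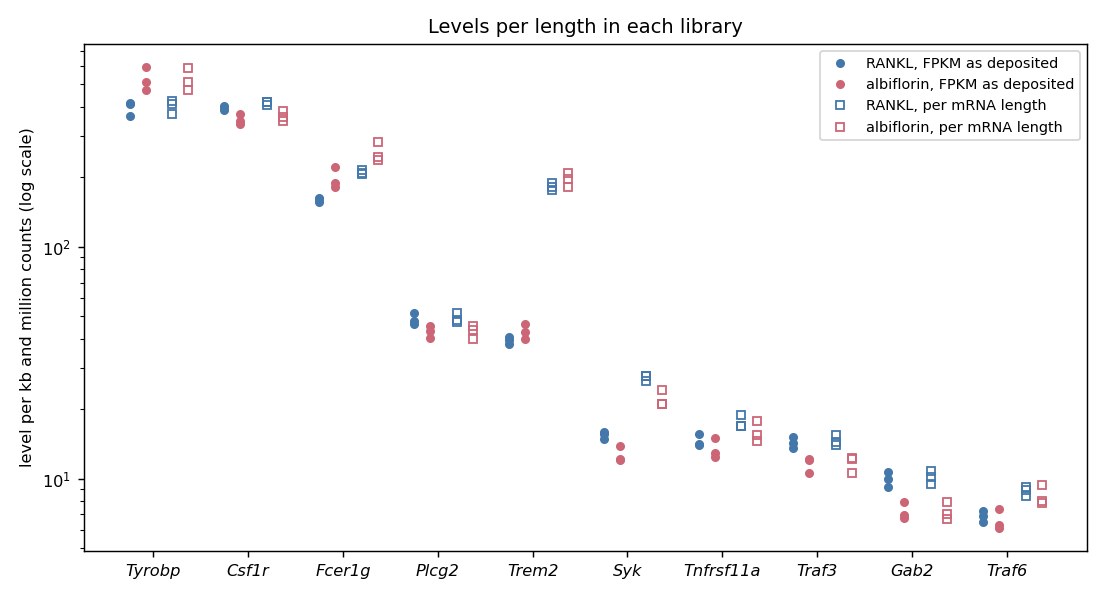
Level of each gene in every library (log y axis), as deposited FPKM (filled circles) and CPM per kilobase of principal mRNA (open squares), RANKL in blue and albiflorin in red. The scales nearly coincide except for Trem2 (39.5 against 181 with RANKL), Syk (15.4 against 27.2), and by less for Fcer1g, Traf6 and Tnfrsf11a.

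Ratios between partner genes within a library were compared for 5 pairs, with exact two-sided permutation tests in which 3 against 3 libraries cannot go below p = 0.1. The ratio of Syk to Tyrobp FPKM was 0.0384, 0.0424 and 0.0355 in the RANKL libraries and 0.0234, 0.0204 and 0.0291 in the albiflorin libraries. It was lower in all 3 albiflorin libraries, with a log2 difference of -0.69 (exact permutation p = 0.1, adjusted 0.25 over the 5 pairs). The difference was -0.06 with the mRNA-length trend removed (exact permutation p = 0.3). The ratio of Trem2 to Tyrobp was also lower without overlap (log2 difference -0.28, exact permutation p = 0.1, adjusted 0.25). It was -0.09 with the mRNA-length trend removed and 0.18 with the listed-length trend removed. Under both the groups did not overlap (exact permutation p = 0.1 each), lower under the first and higher under the second. No direction is therefore given for this ratio.

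The ratio of Traf3 to Traf6, the restraining against the relaying TRAF, was 1.98, 2.32 and 1.98 with RANKL and 1.98, 1.67 and 1.63 with albiflorin. The groups met at albiflorin replicate 1, and the log2 difference was -0.25 (exact permutation p = 0.2, adjusted 0.333). Both mRNAs are long, and the difference was -0.22 with the mRNA-length trend removed (exact permutation p = 0.3, groups overlapping). It was -0.27 with the listed-length trend removed, where the groups no longer overlapped (exact permutation p = 0.1). Fcer1g against Tyrobp (log2 difference -0.10, exact permutation p = 0.3) and Csf1r against Tnfrsf11a (-0.05, exact permutation p = 0.5) overlapped between groups. The Csf1r to Tnfrsf11a ratio was 27.5 ± 2.21 with RANKL and 26.5 ± 1.31 with albiflorin (SD, n = 3 each).

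**Figure D5:**
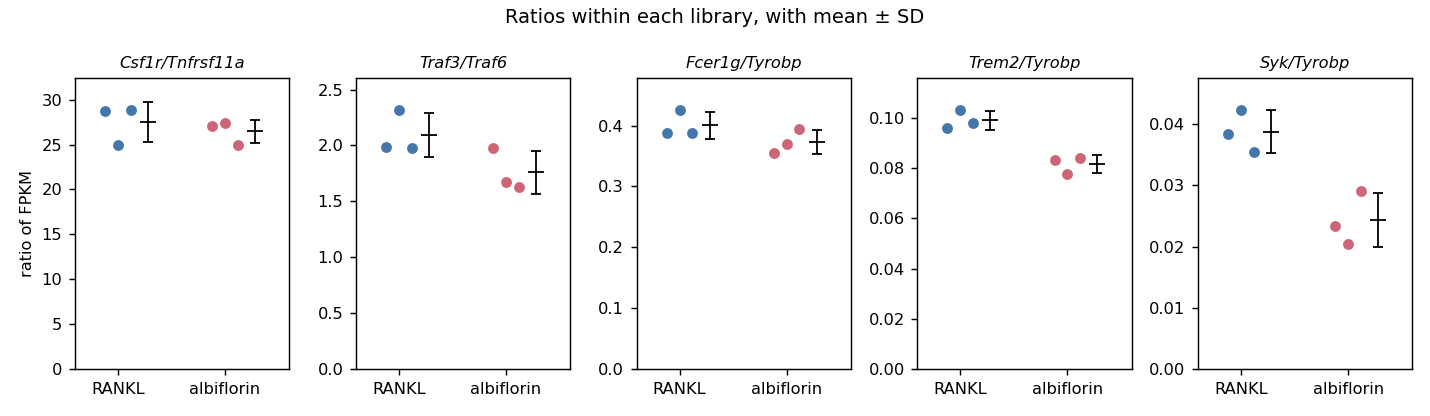
Ratio of FPKM within each library (y axes from 0) for the 5 pairs, points for replicates 1 to 3 and bars for mean and SD. Syk/Tyrobp and Trem2/Tyrobp are lower in all 3 albiflorin libraries, and the other pairs overlap.

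Other genes of the same pathways were taken from 3 lists without the 10 genes. Of 91 listed, 86 were matched and 76 tested, of which 5 rose and 19 fell, beside 12.4% and 11.4% of all tested genes, with a median log2 fold change of -0.08 against 0.01. With the mRNA-length trend removed 5 were higher and 5 lower, beside 4.88% and 5.47%; with the listed-length trend removed 7 were higher and 11 lower, beside 7.18% and 7.96%. The count lower was 12 without RANKL replicate 1, 10 without RANKL replicate 2 and 10 without albiflorin replicate 1. The count higher was 3 without RANKL replicate 1, 2 or 3, each left out alone, and 2 without albiflorin replicate 1.

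In the RANK list 2 of 22 tested genes rose and 5 fell, beside 23.8% of all tested genes called, and with the mRNA-length trend removed 3 were higher and 1 lower, beside 10.4%. With the listed-length trend removed 3 were higher and 2 lower, beside 15.1%. Traf1, a TRAF induced by NF-kB, rose from 24.8 ± 1.10 to 31.6 ± 0.829 CPM (SD, n = 3 each; log2 fold change 0.35 ± 0.0842, edgeR adjusted p = 0.00711), and its call held after removal of the mRNA-length trend (0.39, adjusted p = 0.00645). Birc2, which encodes the TRAF-bound ubiquitin ligase cIAP1, rose by 0.20 ± 0.0614 (adjusted p = 0.0259) and stood at 0.23 (0.0141) with that trend removed. Limd1 (-0.22, adjusted p = 0.0153), whose product binds TRAF6, Ikbkb (-0.22, 0.0193), an IkB kinase gene, and Map3k7 (-0.24, 0.0278), which encodes TAK1, fell. With the mRNA-length trend removed Limd1 stood at -0.09 (0.248), Ikbkb at -0.17 (0.0526) and Map3k7 at -0.07 (0.501). With the listed-length trend removed Limd1 kept its call (-0.18, 0.0303), Map3k7 did not (-0.14, 0.160) and Ikbkb changed sign (0.05, 0.659). Ube2v1 (-0.27, edgeR adjusted p = 0.0281) and Tab3 (-0.29, 0.0402) also fell. Ube2v1 kept its call with the trend on mRNA length (-0.37, 0.00662) or listed length (-0.57, 0.000465) removed. Tab3 kept it under neither (-0.09, 0.601, and -0.18, 0.215). Leave-outs of Ube2v1 and Tab3 are not given here.

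Among the calls of Traf1, Birc2, Limd1, Ikbkb and Map3k7, 4 lay near the threshold and ended when any of several libraries was left out. The log2 fold changes then ranged from 0.15 to 0.23 for Birc2, -0.31 to -0.15 for Map3k7, -0.24 to -0.18 for Ikbkb and -0.24 to -0.20 for Limd1. Birc2 did not pass without RANKL replicate 1 (adjusted p = 0.0673), 2 (0.0519) or 3 (0.0970) or albiflorin replicate 1 (0.186). Map3k7 did not pass without RANKL replicate 1 (0.0660) or 2 (0.145) or albiflorin replicate 1 (0.0956) or 2 (0.0561). Ikbkb did not pass without RANKL replicate 3 (0.0916) or albiflorin replicate 1 (0.0661) or 2 (0.0592), and Limd1 without RANKL replicate 2 (0.0515) or albiflorin replicate 1 (0.0650). With the replicate number as a block Birc2 (0.0558) and Map3k7 (0.0501) were not called.

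In the M-CSF receptor list 2 of 28 tested genes rose and 10 fell, beside 12.4% and 11.4% of all tested genes, and with the mRNA-length trend removed 1 was higher and 3 lower, beside 4.88% and 5.47%. With the listed-length trend removed 1 was higher and 5 lower, beside 7.18% and 7.96%. Socs3, a cytokine-induced inhibitor of JAK kinases, rose from 23.9 ± 1.64 to 39.6 ± 5.43 CPM (SD, n = 3 each; log2 fold change 0.73 ± 0.102, edgeR adjusted p = 0.000368). The lower genes with the smallest p were Cbl, the ubiquitin ligase that removes the receptor (-0.50 ± 0.0760, adjusted p = 0.000491), Ptpn11, which encodes the GAB2 partner SHP2 (-0.38 ± 0.0679, 0.00124), Inpp5d, the SHIP1 lipid phosphatase gene (-0.32 ± 0.0713, 0.00473), and Pik3cb, a PI3 kinase catalytic subunit gene (-0.24 ± 0.0636, 0.0125). Socs3 (0.68, adjusted p = 0.00113), Cbl (-0.19, 0.0225), Ptpn11 (-0.23, 0.0160) and Inpp5d (-0.19, 0.0327) kept their calls with the mRNA-length trend removed, and Pik3cb did not (0.70).

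In the ITAM list 1 of 26 tested genes rose and 4 fell, beside 23.8% of all tested genes called, and with the mRNA-length trend removed 1 was higher and 1 lower, beside 10.4%. With the listed-length trend removed 3 were higher and 4 lower, beside 15.1%. All 3 genes for IP3 receptors, the calcium channels opened downstream of PLC gamma, fell: Itpr1 (-0.46 ± 0.0756, edgeR adjusted p = 0.000722), Itpr3 (-0.37 ± 0.0734, 0.00218) and Itpr2 (-0.33 ± 0.0671, 0.00293). Their mRNAs have 8331 to 9870 nt, and none was called once that length trend was taken out (adjusted p = 0.0639, 0.211 and 0.437). Vav3, a guanine exchange factor gene (-0.28 ± 0.0674, adjusted p = 0.00700), was not called then either (0.0963). With the listed-length trend removed Itpr1 (-0.21, adjusted p = 0.0311), Itpr3 (-0.22, 0.0193) and Vav3 (-0.20, 0.0313) kept their calls and Itpr2 did not (-0.10, 0.290). Clec5a, a DAP12-coupled receptor gene, rose by 0.18 ± 0.0585 (adjusted p = 0.0393) and stood at -0.19 (0.0748) with the mRNA-length trend removed and at 0.17 (0.0413) with the listed-length trend removed. Its log2 fold change ranged from 0.16 to 0.21 over the leave-outs, and its call ended without RANKL replicate 1 (adjusted p = 0.130) or 3 (0.146), without albiflorin replicate 1 (0.153) or 2 (0.0917), and with the replicate number as a block (0.0780). Oscar, the gene of an FcR gamma-coupled osteoclast receptor, had 0 to 3 counts per library.

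Genes most like the receptors in their pattern over the 6 libraries were found by Pearson correlation of log2 CPM among 9677 genes with at least 5 CPM, as a description. For Tnfrsf11a they were Usp46, Fbxo9 and Cd44 (r = 0.989, 0.989 and 0.988), and 41 genes reached 0.95. For Csf1r they were Ttc7, Arap1 and Ppp1r10 (r = 0.998, 0.997 and 0.996), and 325 genes reached 0.95. The 6 libraries share 2 groups, so a gene that differs between the groups as Csf1r does correlates with it.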

How the data were processed

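Reads per gene of 6 RAW264.7 libraries were taken from the deposited table of raw counts, and levels per length from the matching deposited FPKM table. Per the submitters' processing notes, HISAT2 2.2.1, featureCounts 2.0.6-p3, fastp, DESeq2 1.42.0 and CASAVA 1.8 were used, in steps not described. The authors' FPKM values divide by a listed gene length and a library total that differed from the column total by -0.95% to 1.65%. The genome build was not given in the sources used here, nor the use of strand; coordinates are those of the deposited table, whose identifiers carry the C57BL/6NJ prefix. Of 41921 rows, 11512 had no symbol and 1256 of these were named from a single protein match in the description.

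Counts were tested with edgeR 4.0.16 (R 4.3.3): filterByExpr, TMM, quasi-likelihood F-test on group, Benjamini-Hochberg adjusted p under 0.05 over 13158 genes. The SE is the absolute log2 fold change over the square root of F. For the length alternatives a lowess trend (span 0.3, fitted on genes with mean log2 CPM over 3) of each library on length was passed as offsets. Lengths were the listed gene length or the principal-transcript mRNA length in GENCODE M21, found for 80.5% of tested genes and 95.4% of tested protein-coding genes, all 10 described genes included; others took the listed length. Further alternatives were RLE scaling, DESeq2 1.42.0, limma 3.58.1 (voom, log2(FPKM + 1), log2(FPKM + 0.1)), no filter, at least 10 counts in every library, the replicate number as a block and leaving out each library. The fit without trend removal was tested on simulated counts that held no length trend. That test does not bear on the length alternatives.

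The genes, lists and tests were chosen with earlier results of these data known. Named were the 10 genes, the called genes with the smallest p of each pathway list (at most 5), and 4 ligand or decoy genes. Oscar, Ube2v1, Tab3, Acp5, Itgb3, Mmp9, Atp6v0d2, Ocstamp, Dcstamp, Spi1, Cd14, Adgre1, Itgam, Calcr and Ctsk were named after their values were seen or as markers. Protein sequences were not used here.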

Additional observations from a re-analysis of the deposited data

How the results depend on the processing

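Among the 10 genes, the counts called were 2 higher and 3 lower. Both length trends removed gave 0 higher, and DESeq2 and no filter each gave 5 lower; leaving out each library gave 2 to 2 higher and 3 to 5 lower. Tested genes numbered 1631 higher and 1496 lower, against 945 higher with the gene-length trend removed, 642 and 720 once the mRNA-length trend was taken out, 901 lower on log2(FPKM + 1) and 909 on log2(FPKM + 0.1); leaving out each library gave 984 to 1753 higher and 914 to 1644 lower. Pathway genes (5 higher, 19 lower) gave 3 higher and 9 lower on log2(FPKM + 1), 2 and 9 on log2(FPKM + 0.1), 11 lower with the gene-length trend and 5 lower with the mRNA-length trend removed; leaving out each library gave 2 to 5 higher and 10 to 24 lower. Ratios moved with the trends: Trem2 to Tyrobp to -0.089 (mRNA length) and 0.18 (gene length), Syk to Tyrobp to -0.056 and -0.11. Leaving out each library gave -0.30 to -0.24 and -0.82 to -0.57 for these.

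Signs reversed with the mRNA-length trend removed for Tnfrsf11a (0.019), Traf6 (0.13), Tyrobp (-0.078), Fcer1g (-0.13), Trem2 (-0.17) and Clec5a (-0.19), and with the gene-length trend removed for Traf6 (0.085), Tyrobp (-0.0093), Fcer1g (-0.039) and Ikbkb (0.046). Leaving out each library moved Csf1 between -0.040 and 0.39. The replicate block gave 2 of the 10 genes higher and 3 lower, 3 pathway genes higher and 1358 tested genes higher and 1214 lower. No pairing by replicate number was detected, with deviations of same-numbered libraries correlated at 0.0219, -0.0433 and -0.0664. These values do not exclude a shared culture, and the labels name none. No setting other than the 2 length trends ended a call among the 10 genes, and what sets the trends was not tested. Depth limits the scarce genes: Csf1, with 19 to 40 counts per library, had a log2 SE of 0.303, against 0.0636 to 0.0802 for the 10 genes.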
